A study of Mus musculus with 12 samples.

Results

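The 7 genes Tlr7, Tlr9, Tlr4, Tlr2, Unc93b1, Pld4 and Myd88 were followed through antibody-secreting cells (ASCs) of mouse bone marrow, spleen and thymus, as 7 of the 32285 genes in the matrices. Their rows were read in the 8715 of 39949 filtered barcodes that met a rule on depth and light chain. A barcode had to hold at least 1000 unique molecular identifiers (UMIs) outside genes starting Igh, Igk or Igl, and its top light-chain V gene had to take at least 50% of its Igkv and Iglv UMIs. Of these barcodes, 1013 lay within 5 percentage points above the light-chain limit, and 1044 barcodes of sufficient depth lay within 5 points below it.

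The mice were Prdm1-eYFP animals on the C57BL/6 background, 3 months of age, whose yellow fluorescent protein reports the ASC transcription factor Prdm1. Every library carries the reporter, and no library came from mice without it. Cells were sorted from pools of 3 mice by high CD138, by the reporter, by absence of IgD and CD90.2, and regardless of B220. There was 1 gene expression library for each sex in each tissue, so a tissue had 2 libraries, a sex had 3, and no sex-by-tissue combination was replicated. The labels leave unsaid if 1 pool of mice gave all 3 tissues of its sex, so a difference between the sexes cannot be told apart from a difference between pools, and p-values measure the spread between these libraries.

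Toll-like receptors detect microbial and self molecules. Tlr7 and Tlr9 sit in endolysosomes and bind single-stranded RNA and CpG DNA, whereas Tlr2 and Tlr4 sit at the cell surface and bind lipoproteins and lipopolysaccharide. Unc93b1 is the chaperone that carries the nucleic acid receptors out of the endoplasmic reticulum, Pld4 is an endolysosomal exonuclease that degrades single-stranded nucleic acids before they reach those receptors, and Myd88 is the adaptor through which all 4 receptors here signal. In B cells these receptors can drive activation and differentiation into ASCs.

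The female and male marrow libraries gave 1238 and 1665 barcodes, the splenic ones 3567 and 1850, and the thymic ones 107 and 288. Their summed depth ran from 264621 UMIs outside immunoglobulin genes in female thymus to 21287170 in female spleen, so the thymic values rest on the fewest counts. All 8 ASC markers were detected in every library, and every barcode held at least 2 of them. The list holds very abundant transcripts such as Jchain, and barcodes outside the rule were not counted for it. Holding 2 of these markers therefore does not set the chosen barcodes apart. At least 2 distinct B cell markers were present in 3687 barcodes, although the B cell regulator Pax5 was at or below 1.39 CPM (UMIs per 1000000 UMIs outside immunoglobulin genes) in every library and at 0 in both thymic ones. Macrophage markers (at least 2) were present in 184 barcodes, plasmacytoid dendritic cell markers in 106, T cell markers in 21, and neutrophil markers in 202, all 202 in bone marrow. Xist had 431 to 14306 UMIs in the female libraries and 2 to 8 in the male ones, and 4 Y-linked genes together had 0 to 2 and 300 to 1753, as the sex labels state. Pairs of libraries shared between 0 and 11 barcode sequences that met the rule.

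By the GENCODE annotation of GRCm38, Tlr7 lies on the minus strand of chrX:167304929-167330558, Tlr9 on the plus strand of chr9:106222598-106226883, Tlr4 on the plus strand of chr4:66827584-66930284 and Tlr2 on the minus strand of chr3:83836272-83841767. Unc93b1 lies on the plus strand of chr19:3935186-3949340, Pld4 on the plus strand of chr12:112760655-112768990 and Myd88 on the minus strand of chr9:119335934-119341411. RefSeq promoters (GRCm38.p6, 250 bases before the start to 50 after it) were matched for 4 of the 7 members, namely Tlr2, Tlr9, Myd88 and Pld4. The promoters of Pld4 and Tlr2 are shown because their transcripts moved in opposite directions between cycling and non-cycling cells below, and that of Tlr9 because its transcript was almost absent. Each runs 5′ to 3′ on the gene's own strand, with capitals at matches to GAGGAA, the core bound by the myeloid and B cell factor PU.1 and its relatives, or to its reverse complement. The Pld4 window is chr12:112760405-112760704 (plus strand), the Tlr2 window chr3:83841559-83841858 (minus strand) and the Tlr9 window chr9:106222348-106222647 (plus strand).
Pld4: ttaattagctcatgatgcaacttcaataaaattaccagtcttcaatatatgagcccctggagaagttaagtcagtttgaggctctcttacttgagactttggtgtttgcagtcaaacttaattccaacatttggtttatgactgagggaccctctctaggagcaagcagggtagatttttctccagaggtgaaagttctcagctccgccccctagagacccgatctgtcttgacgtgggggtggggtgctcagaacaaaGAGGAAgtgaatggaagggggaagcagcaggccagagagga
Tlr2: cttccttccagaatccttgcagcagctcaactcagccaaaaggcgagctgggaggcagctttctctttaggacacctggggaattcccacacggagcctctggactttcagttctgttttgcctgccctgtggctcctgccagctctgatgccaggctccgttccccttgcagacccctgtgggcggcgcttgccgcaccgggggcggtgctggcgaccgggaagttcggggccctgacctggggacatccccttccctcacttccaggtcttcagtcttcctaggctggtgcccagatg
Tlr9: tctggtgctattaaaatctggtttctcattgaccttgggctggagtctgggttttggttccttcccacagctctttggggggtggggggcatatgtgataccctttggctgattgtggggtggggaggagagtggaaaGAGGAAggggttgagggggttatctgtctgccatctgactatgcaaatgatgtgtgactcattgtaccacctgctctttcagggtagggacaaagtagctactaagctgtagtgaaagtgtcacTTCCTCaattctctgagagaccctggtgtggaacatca

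The Pld4 window holds GAGGAA 9 bases after the start, on the plus strand. The Tlr9 window holds it on the plus strand, beginning 112 bases before the start, and on the minus strand 12 bases after it. The Tlr2 window holds none on either strand. Of all 32851 promoters of the same length in the table, 28.3% hold these letters on at least 1 strand. The interferon-stimulated element GAAANNGAAA, searched the same way, was found in the Myd88 window only among the 4, beginning 40 bases before the start, and in 3.44% of all promoters.

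The first question was which of the receptors these cells express at all, in each tissue. Levels are given in CPM. The reads come from 5′ ends, so values are compared between libraries within a gene, not between genes. Exact 95% intervals cover counting error only.

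Tlr7, the receptor for single-stranded RNA, was at 14.2 CPM in the female and 8.39 in the male marrow library, 15.8 and 17.0 in the splenic ones, and 117 and 81.6 in the thymic ones. The intervals in thymus were 79.6 to 166 and 66.2 to 99.5, from 31 and 97 UMIs. Both thymic libraries therefore stood above all 4 others, with no overlap of intervals. After each barcode was thinned to 1000 UMIs, 8.41% and 9.72% of thymic barcodes held a Tlr7 UMI, against 0.901% to 2.16% in the other 4 libraries. Without thinning the shares were 21.5% and 25.3% in thymus and 4.08% to 7.96% elsewhere, at median depths of 2035 and 2797.5 UMIs in thymus and 2797.5 to 4352 elsewhere. More barcodes with the transcript thus accompanied the higher sum in thymus.

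Tlr9, the receptor for CpG DNA, had 5 UMIs in all 8715 barcodes, or 0.110 CPM (0.0356 to 0.256). They fell as 1 in female bone marrow, 2 in female spleen, 1 in male spleen and 1 in female thymus. Male bone marrow and male thymus had 0, which at a floor of 3 counts allows up to 0.323 and 2.52 CPM. No thinned barcode held a Tlr9 UMI. Tlr9 did not reach the count needed for testing in any comparison, so 6 of the 7 members were tested.

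The surface receptor Tlr4 was at 8.27 and 10.7 CPM in the female and male marrow libraries, 7.61 and 16.3 in the splenic ones, and 11.3 and 7.57 in the thymic ones. The thymic values come from 3 and 9 UMIs, and their intervals, 2.34 to 33.1 and 3.46 to 14.4, overlap those of every other library. Tlr4 therefore showed no order by tissue beyond counting error in thymus. It was in 1.04% to 1.87% of thinned barcodes per library.

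Tlr2, which pairs with other receptors to bind bacterial lipoproteins, was at 15.5 and 23.2 CPM in the female and male marrow libraries, 12.2 and 21.5 in the splenic ones, and 7.56 and 22.7 in the thymic ones. In each tissue the male library was above the female one, although the female thymic value rests on 2 UMIs (0.915 to 27.3). The thinned share ran from 0.935% of barcodes in female thymus to 4.51% in male thymus.

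Unc93b1, the chaperone, was at 549 and 751 CPM in the female and male marrow libraries, 451 and 705 in the splenic ones, and 608 and 694 in the thymic ones. In each tissue the male library was the higher. Its UMIs were in 45.7% of thinned barcodes and 84.6% of unthinned ones over all libraries.

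Pld4, the exonuclease, was at 72.1 and 116 CPM in the female and male marrow libraries, 83.2 and 136 in the splenic ones, and 166 and 119 in the thymic ones. The lowest values were the female bone marrow and female spleen libraries, and the highest was female thymus (121 to 223, 44 UMIs). Per library, 5.74% to 15.0% of thinned barcodes held a Pld4 UMI.

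Myd88, the adaptor, was at 15.7 and 18.3 CPM in the female and male marrow libraries, 17.0 and 17.5 in the splenic ones, and 26.5 and 22.7 in the thymic ones. The interval of the female thymic value, 10.6 to 54.5 from 7 UMIs, covers every other library. The 4 bone marrow and spleen values lay between 15.7 and 18.3.

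**Figure D1:**
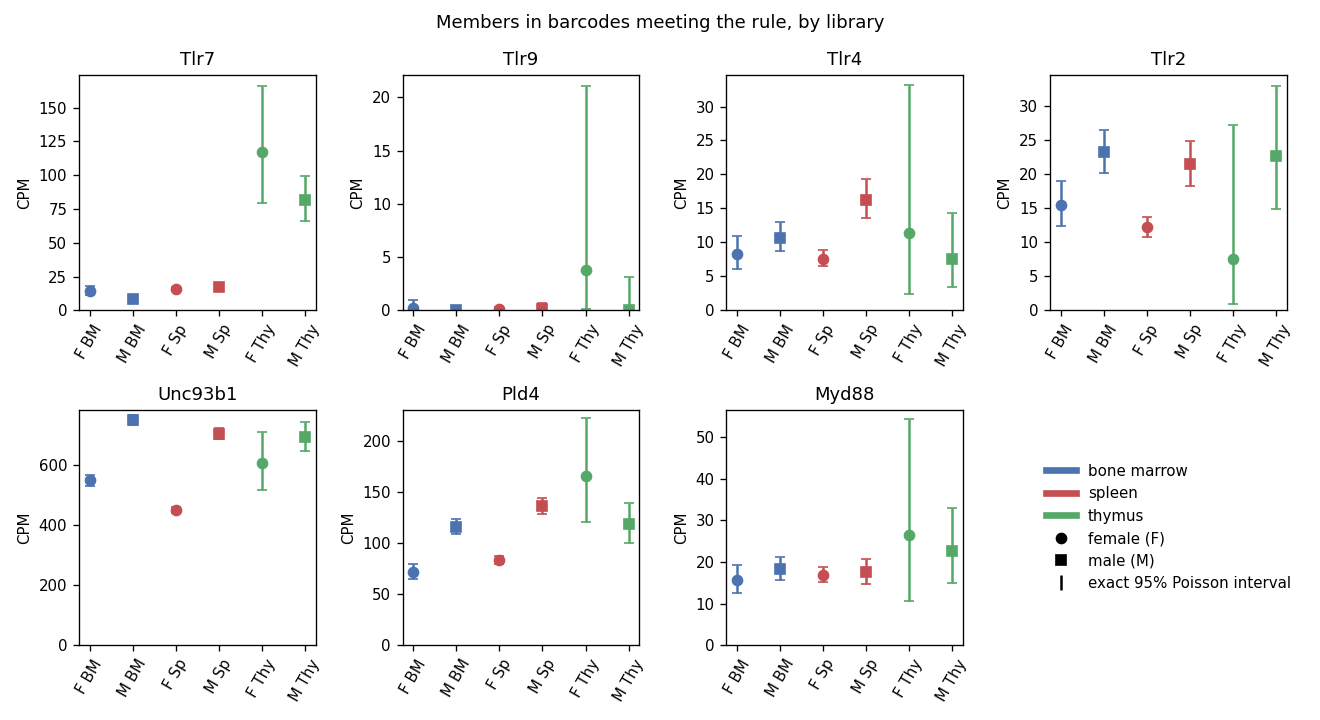
CPM, the UMIs per 1000000 UMIs outside immunoglobulin genes, of the 7 members (y axes, starting at 0) in the 6 libraries (x axis; F female, M male, BM bone marrow, Sp spleen, Thy thymus), with exact 95% Poisson intervals. Tlr7 stands at 117 and 81.6 in thymus against 8.39 to 17.0 elsewhere, and Tlr9 stays near 0.

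Part of any droplet's UMIs comes from free RNA in the suspension. That part was estimated for each barcode from its light-chain V genes other than the leading one, set against the profile of barcodes outside the filtered list. For the 6 tested members the observed UMIs were 3.47 to 64.8 times this estimate in every library. The light-chain limit of the rule caps the share of those same V gene UMIs. The estimate is therefore not independent of how the barcodes were chosen and may be too low, so the ratios are descriptions. Within each splenic library Tlr7 had the lowest ratio, 3.47 in females and 6.00 in males, and it was at 32.4 and 26.8 in female and male thymus. For Tlr9 the estimate was 2.45 UMIs of the 5 seen, so its level is not separable from free RNA at this depth. Free RNA itself differed between tissues: in barcodes outside the filtered list Tlr7 was at 74.4 CPM in female thymus, at 58.5 in male thymus and at 9.55 to 24.2 in the other libraries.

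**Figure D2:**
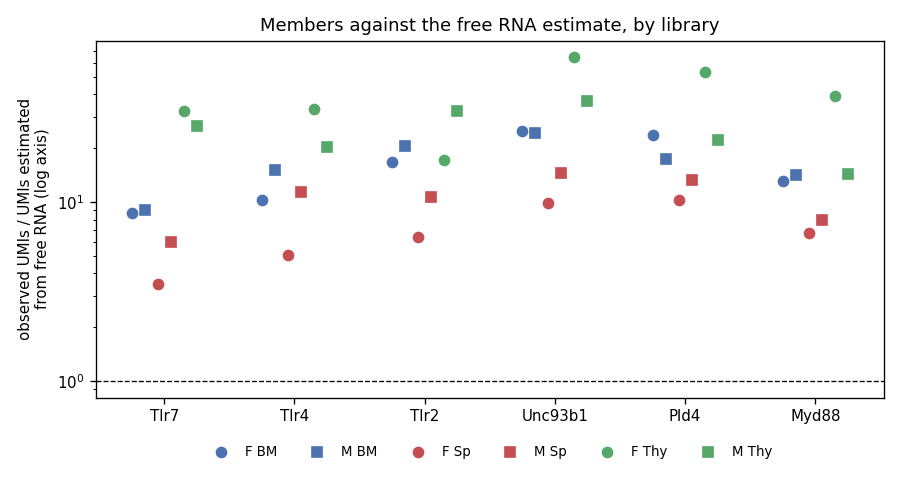
Ratio of observed UMIs to the UMIs estimated from free RNA (y axis, log scale; dashed line at 1) for the 6 tested members in each library. All points are above 1, from 3.47 for Tlr7 in female spleen to 64.8 for Unc93b1 in female thymus. The estimate uses V gene UMIs whose share the rule itself limits.

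Barcodes that met the minimum depth but not the light-chain limit (17034, median depth 1775.5 UMIs) served for comparison. Sets were taken from them by markers alone. ASC markers were not excluded and doublets not removed, so no set is known to lack these genes. In 43 barcodes with at least 3 erythroid markers, Unc93b1 was in 20.9% of thinned barcodes and Pld4 in 2.33%, at a median depth of 2198 UMIs. In 80 with neutrophil markers the shares were 18.8% and 1.25% (median 2931 UMIs). In the barcodes that met the rule the shares were 45.7% and 7.87% (median 3576 UMIs). The Unc93b1 share was thus above the exact intervals of both comparison sets (10.0% to 36.0% and 10.9% to 29.0%), whereas for Pld4 it was above that of the neutrophil set (0.0316% to 6.77%) and within that of the small erythroid set (0.0589% to 12.3%). Tlr7 was in 2.21% of barcodes that met the rule, against 2.33% in the erythroid and 1.25% in the neutrophil barcodes, from 1 barcode in each of those, and the thymic shares of 8.41% and 9.72% were above the neutrophil interval (0.0316% to 6.77%) and within the erythroid one (0.0589% to 12.3%). Tlr4 (1.41%), Tlr2 (2.04%) and Myd88 (1.80%) were each held by 0 or 1 barcode of the erythroid and of the neutrophil set. Sets of 43 and 80 barcodes are too small to tell such low shares apart, so no conclusion is drawn for these 3 members.

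The tissue comparisons asked whether the members differ between ASCs of the thymus and those of the other tissues. Against bone marrow, Tlr7 rose by 2.88 on the log2 scale in thymus (SE 0.30, edgeR quasi-likelihood test, Benjamini-Hochberg adjusted p = 3.7e-07), a 7.37-fold difference. Against spleen it rose by 2.29 (SE 0.29, adjusted p = 3.7e-05), or 4.90-fold. Both sexes showed the direction. Tlr7 was the only member called among 6 tested in either comparison, where 86 of 11239 genes (0.765%) and 71 of 11239 (0.632%) were called.

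T cell markers moved with tissue too. The 10 of them summed to 79.4 and 31.1 CPM in female and male thymus, where 6 and 8 were detected, against 9.21 to 14.1 in the other 4 libraries. In thymus most came from the receptor genes Trbc2 and Trbc1, and Cd4 had 0. Cd3e and Cd8a were each at 3.78 and 2.52 CPM in thymus, from 1 and 3 UMIs, against at most 0.704 and 0.252 elsewhere, and Lck at 3.78 and 3.36 against 0.528 to 2.04. Cd3g (0 and 1.68 against 1.26 to 8.72), Cd8b1 (0 and 2.52 against 0.704 to 3.38) and Trac (0 and 1.68 against 0.631 to 1.69) did not stand above the other libraries in thymus, nor did Cd3d in the male one. At least 2 T cell markers were held by 8 of 395 thymic barcodes. Neutrophil markers were at 0 in thymus and at 552 CPM in the female and 1416 in the male marrow library.

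The Tlr7 difference was as large within the classes that could be tested. It was 2.87 (SE 0.32) against bone marrow and 2.18 (SE 0.30) against spleen in IgM barcodes alone. In IgG barcodes alone it was 3.67 (SE 0.68) and 3.56 (SE 0.59), with 0 Tlr7 UMIs in male bone marrow and 5 in female thymus. Tlr7 had too few UMIs to be tested in IgA barcodes alone. It was 2.92 and 2.44 with the free RNA estimate subtracted, 2.98 and 2.34 without barcodes holding markers of other cell types, and 3.09 and 2.20 without barcodes holding B cell markers, with adjusted p-values of 0.0010 or below in these 3 settings. The same order was present outside the rule. In the barcodes that failed the light-chain limit Tlr7 was at 124 CPM in both female and male thymus and at 11.4 to 26.0 in the other 4 libraries. The difference was therefore not particular to the barcodes chosen by the rule.

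The other 5 tested members were not called between tissues. Against bone marrow the thymic log2 differences were −0.54 for Tlr4 (95% interval −1.53 to 0.44), −0.40 for Tlr2 (−1.14 to 0.34), −0.26 for Unc93b1 (−1.05 to 0.52), 0.30 for Pld4 (−0.35 to 0.94) and 0.24 for Myd88 (−0.46 to 0.94). Each interval spans 0, which does not show equal levels. Between spleen and bone marrow no member was called among 6 tested by edgeR, and none by DESeq2, where 49 of 11239 genes (0.436%) were called by edgeR. Tlr7, the 1 member with an unadjusted p below 0.05 by edgeR (0 by DESeq2), had a log2 difference of 0.59 (SE 0.27, unadjusted p = 0.035, adjusted p = 0.94 by edgeR). Over all 11239 genes, 523 had an unadjusted p below 0.05 by edgeR.

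The sex comparison, with tissue as a term, called none of the 6 members tested by edgeR, and none by DESeq2, against 48 of 11239 genes (0.427%) by edgeR. At an unadjusted p below 0.05 there were 2 members by edgeR and 0 by DESeq2, against 1129 of all 11239 genes by edgeR. Tlr7, an X-linked gene, had a log2 difference of −0.52 in males (SE 0.23, unadjusted p = 0.029, adjusted p = 0.43 by edgeR), and was lower in male than in female bone marrow and thymus but not in spleen. Tlr2 had a log2 difference of 0.52 (SE 0.24, unadjusted p = 0.040, adjusted p = 0.47 by edgeR) and was higher in males in all 3 tissues. Unc93b1, also higher in males in all 3 tissues, had a log2 difference of 0.29 with an interval of −0.35 to 0.92 (adjusted p = 0.80 by edgeR).

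**Figure D3:**
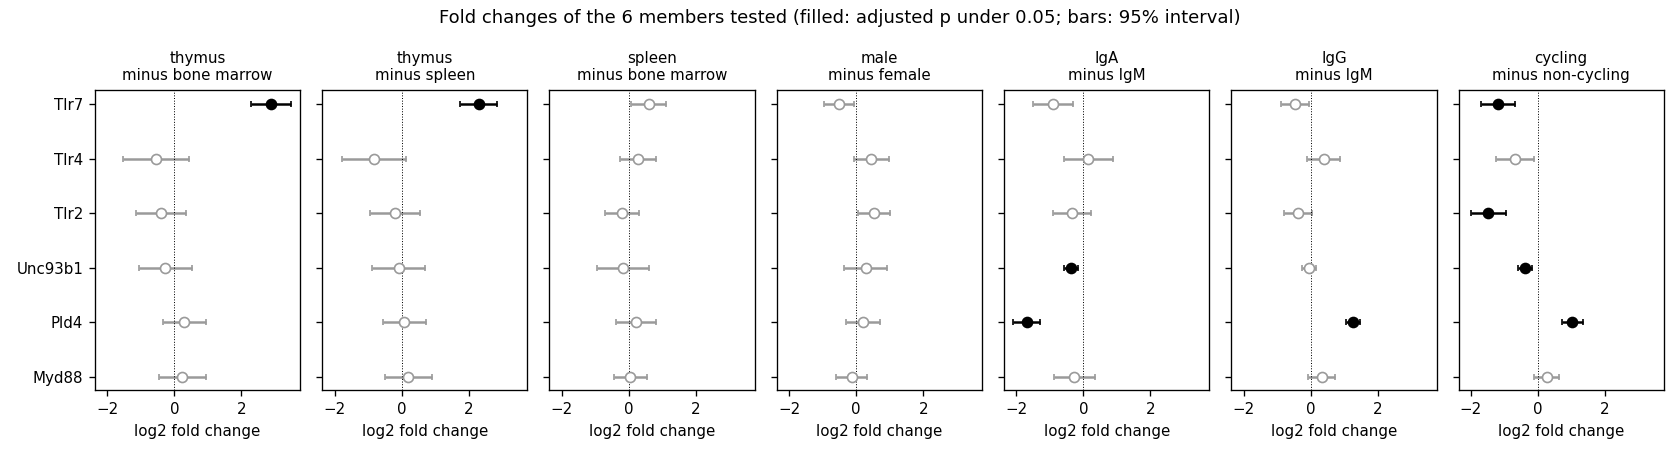
Log2 fold changes (x axes) of the 6 tested members in the 7 comparisons, with 95% intervals; filled points have an adjusted p under 0.05. Tlr7 is filled in both thymic comparisons, and Pld4 in the IgA, IgG and cycling comparisons with opposite signs for IgA and IgG.

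ASCs were next divided by the heavy-chain constant gene with the most UMIs, which gave 7085 IgM, 491 IgA and 1130 IgG barcodes, and 9 with none. Classes were compared within libraries. Pld4 showed a gradient from IgA through IgM to IgG in every library. It was 63.8 CPM in IgM, 9.51 in IgA and 191 in IgG barcodes of female bone marrow, and 111, 14.8 and 335 in those of male bone marrow. In spleen the 3 values were 69.0, 23.5 and 152 in females and 121, 39.8 and 273 in males. In thymus they were 134, 115 and 358 in females and 111, 56.5 and 206 in males. IgA was the lowest and IgG the highest class in 6 of 6 libraries. The ranges of IgM (63.8 to 134) and IgG (152 to 358) did not overlap, and the IgA value of female thymus, from 5 UMIs, was the only one within the IgM range.

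In IgA barcodes Pld4 fell by 1.69 on the log2 scale against IgM (SE 0.20, edgeR adjusted p = 2.0e-07). In IgG barcodes it rose by 1.27 (SE 0.11, edgeR adjusted p = 1.4e-10). The comparisons share their IgM sums. Of the genes tested, 567 of 7400 (7.66%) were called between IgA and IgM and 934 of 7400 (12.6%) between IgG and IgM. Of the 6 members tested, 2 were called in the first and 1 in the second. The share of thinned barcodes with a Pld4 UMI was 7.0% for Ighm, 2.24% for Igha, 15.1% for Ighg1, 15.5% for Ighg2b, 14.2% for Ighg2c and 19.9% for Ighg3, over all libraries. Each of the 4 IgG genes was thus above Ighm in these pooled shares. The pooled levels were 89.2 CPM for Ighm, 24.5 for Igha, 176 for Ighg1, 174 for Ighg2b, 148 for Ighg2c and 280 for Ighg3.

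Unc93b1 was also lower in IgA than in IgM in 6 of 6 libraries, by smaller amounts. It was at 564 and 378 CPM in IgM and IgA barcodes of female bone marrow, 756 and 549 in male bone marrow, 455 and 397 in female spleen, and 718 and 517 in male spleen. The thymic pairs were 648 and 527 in females and 699 and 589 in males. It fell by 0.38 (SE 0.11, edgeR adjusted p = 0.029), and this call was lost when any of the 4 bone marrow and spleen libraries was left out: the adjusted p was 0.17 and 0.13 with the female and male marrow libraries left out, and 0.092 and 0.11 with the splenic ones left out. It was also lost without barcodes holding markers of other cell types (adjusted p = 0.053) and in non-cycling barcodes only (0.068), where the log2 difference was −0.37 in both, as large as over all barcodes (−0.38). Between IgG and IgM the log2 difference was −0.06 (−0.26 to 0.15).

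Tlr7 was lower in IgA than in IgM in 6 of 6 libraries, with a log2 difference of −0.90 (SE 0.31, adjusted p = 0.067 by edgeR), which did not pass. It rests on 27 IgA UMIs in all. With no filter on low counts it passed (adjusted p = 0.019). Between IgG and IgM the Tlr7 difference was −0.48 (SE 0.21, adjusted p = 0.16), and −0.72 without male thymus (adjusted p = 0.034). In thymus, IgM, IgA and IgG barcodes had 134, 45.8 and 119 CPM in females and 79.4, 56.5 and 112 in males, each above every bone marrow and spleen value of any class. The highest of those was 18.4, in IgM barcodes of male spleen. The IgA value of female thymus rests on 2 UMIs (5.55 to 166), lies under its 3-count floor of 68.8 CPM, and its interval covers 18.4. That of male thymus rests on 7 UMIs (22.7 to 116), and the IgA interval of male spleen reaches 47.9.

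Tlr4, Tlr2 and Myd88 were not called between classes. For IgA against IgM their log2 differences were 0.14, −0.34 and −0.27, and for IgG against IgM 0.39, −0.37 and 0.32, with adjusted p-values of 0.29 or more by edgeR. Tlr4 was higher in IgG than in IgM in 6 of 6 libraries, and its interval for that difference was −0.10 to 0.88. The 5 Tlr9 UMIs, not separable from free RNA, are too few to compare by class.

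Markers of other cells moved with class. The summed B cell markers were at 568 to 835 CPM in IgA, 763 to 1045 in IgM and 946 to 1291 in IgG barcodes. Over all barcodes of a library most of this sum came from Cd79b alone (530 to 912 CPM per library). Which B cell markers moved with class was not examined. The 10 plasmacytoid dendritic cell markers, a list that holds the homing receptor Ccr9, summed to 96.8 to 334 in IgA against 33.5 to 86.1 in IgM and 0 to 61.6 in IgG barcodes, and their part in these results was not tested beyond the settings given. Over all barcodes of a library, in bone marrow and spleen, most UMIs of that list came from Cox6a2 (26.9 to 32.9 CPM per library) and Pacsin1 (13.0 to 31.5), while Siglech, its defining gene, had at most 1 UMI in any library. The genes that carry the IgA values were not examined singly. Neutrophil markers, present in bone marrow, summed there to 645 and 1507 CPM in IgM barcodes of females and males, against 119 and 108 in IgA and 99.0 and 114 in IgG. Without barcodes holding B cell markers Pld4 still fell by 1.56 in IgA and rose by 1.66 in IgG, and without those holding markers of other types it fell by 1.58 and rose by 1.31.

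**Figure D4:**
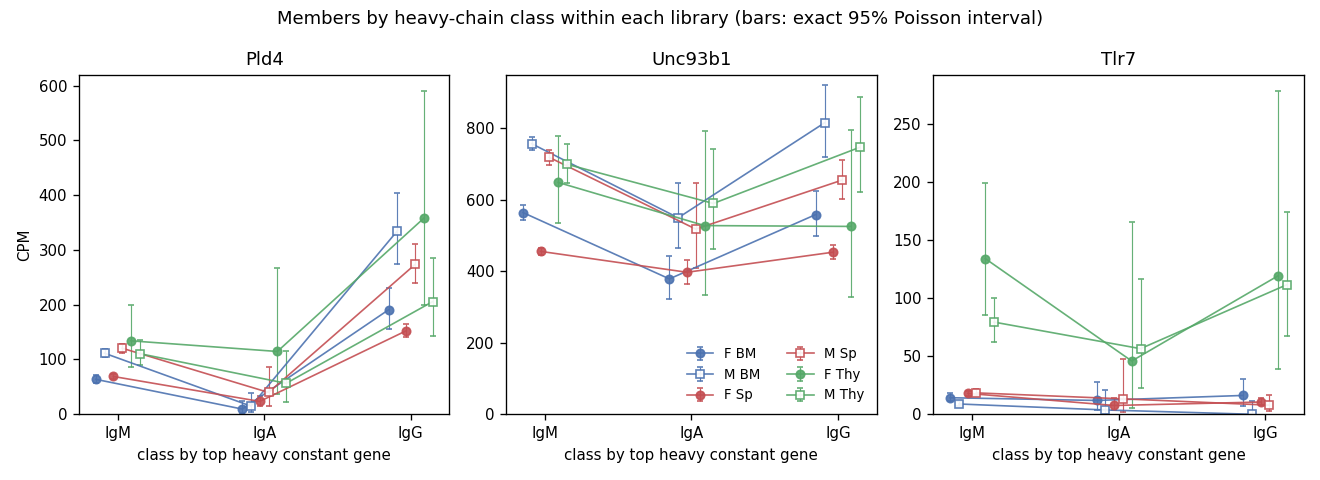
Pld4, Unc93b1 and Tlr7 in CPM (y axes, starting at 0) by heavy-chain class (x axis), 1 line per library, with exact 95% Poisson intervals. Pld4 is lowest in IgA and highest in IgG in all 6 libraries. Tlr7 is high in both thymic libraries in IgM and IgG barcodes, and its IgA values there rest on 2 UMIs in females and 7 in males.

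Plasmablasts divide and plasma cells do not. A barcode was called cycling when, after thinning, it held at least 2 of 15 mitotic genes, and non-cycling when it held none. Female thymus had 7 cycling barcodes, under the minimum of 10, so 5 libraries entered, with 516 cycling barcodes in those 5 and 6812 non-cycling ones in all 6. Cycling was accompanied by changes in 4208 of 9850 genes (42.7%), so the 4 members called of 6 tested are to be read against that share.

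Pld4 rose in cycling barcodes. It was 62.7 CPM in non-cycling and 119 in cycling barcodes of female bone marrow, 91.5 and 318 in male bone marrow, 79.9 and 97.4 in female spleen, 120 and 317 in male spleen, and 102 and 249 in male thymus. All 5 libraries showed the direction, and female spleen the smallest step. The log2 difference was 1.02 (SE 0.16, edgeR adjusted p = 1.8e-05). Within non-cycling barcodes the class differences of Pld4 stood at −1.51 for IgA and 1.57 for IgG against IgM.

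The 3 other members called were lower in cycling barcodes, in 5 of 5 libraries each. Tlr2 was at 17.1 and 3.89 CPM in non-cycling and cycling barcodes of female bone marrow, 24.2 and 14.3 in male bone marrow, 13.1 and 4.22 in female spleen, 23.5 and 6.21 in male spleen, and 22.0 and 19.2 in male thymus. It fell by 1.48 (SE 0.27, edgeR adjusted p = 1.2e-04), on 30 UMIs in cycling barcodes. Unc93b1 was at 564 and 418 in female bone marrow, 745 and 614 in male bone marrow, 457 and 400 in female spleen, 703 and 621 in male spleen, and 705 and 536 in male thymus. It fell by 0.38 (SE 0.11, edgeR adjusted p = 0.0055). The steps of Unc93b1 were thus small and alike in direction.

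Tlr7 was at 15.8 and 1.94 CPM in non-cycling and cycling barcodes of female bone marrow, 9.28 and 3.18 in male bone marrow, 16.4 and 10.9 in female spleen, 18.3 and 4.66 in male spleen, and 85.9 and 38.3 in male thymus. It fell by 1.19 (SE 0.26, edgeR adjusted p = 8.9e-04), on 43 UMIs in cycling barcodes, 31 of them in female spleen. Without that library it fell by 1.79 (edgeR adjusted p = 4.9e-04). The Tlr7 call was lost without barcodes holding B cell markers (−0.68, adjusted p = 0.34) and with the light-chain limit at 80% (−0.93, adjusted p = 0.079), settings that also leave fewer libraries. It was kept when any 1 library was left out (log2 −1.79 to −1.03, edgeR adjusted p of 0.0085 or below). Why it was lost in those 2 settings was not tested. Tlr4 was lower in 5 of 5 libraries, with a log2 difference of −0.70 (SE 0.29, adjusted p = 0.056 by edgeR). It passed without male thymus (adjusted p = 0.047) and with another scaling (adjusted p = 0.042). For Myd88 the difference was 0.26 (−0.11 to 0.63).

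Markers moved with cycling too. At least 2 B cell markers were present in 300 of 516 cycling and 2848 of 6812 non-cycling barcodes, but cycling barcodes were deeper, with median depths of 4155 to 7100 against 2802 to 4465.5 UMIs in the 5 libraries used. Summed per library, the B cell markers were lower in cycling barcodes in 4 of 5 libraries, at 726 to 830 against 842 to 1128 CPM, and at 785 against 770 in male thymus. Over all barcodes of a library this sum was mostly Cd79b (530 to 912 CPM per library). Neutrophil markers summed to 66.1 and 43.0 CPM in cycling against 674 and 723 in non-cycling barcodes of female and male bone marrow, and without barcodes holding markers of other cell types Tlr2 fell by 1.66. Summed ASC markers were at 23182 to 47886 CPM in cycling against 80276 to 121665 in non-cycling barcodes of the same 5 libraries. Over all barcodes of a library most of this sum was Jchain (48477 to 98942 CPM per library), and the ASC markers were not examined singly by cycling. The part of all these markers in the results was not tested beyond the settings given.

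**Figure D5:**
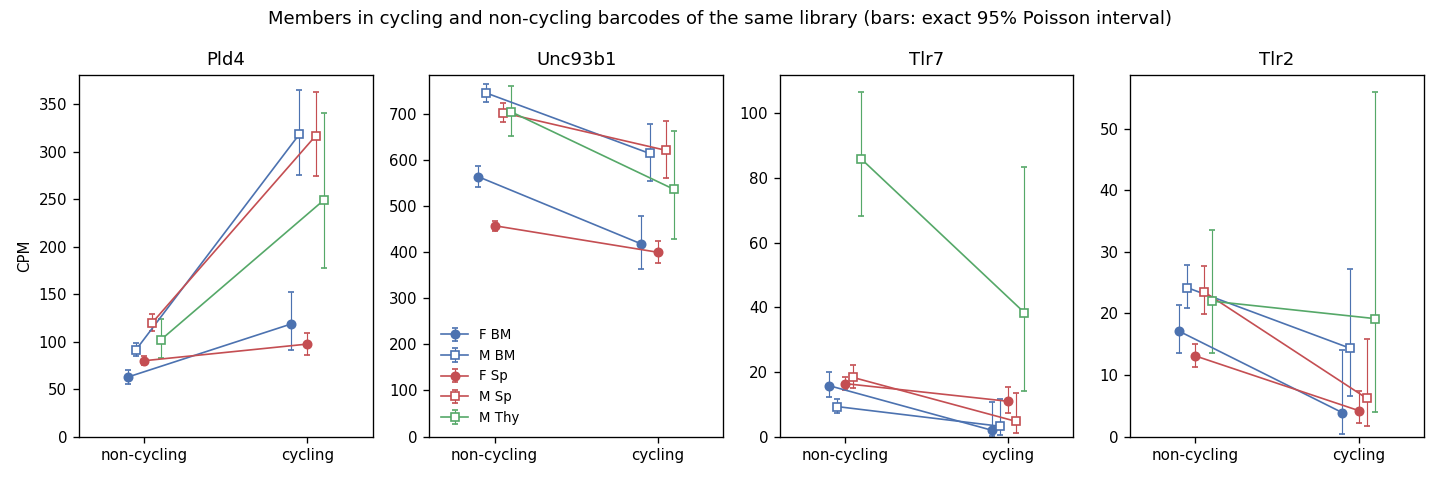
Pld4, Unc93b1, Tlr7 and Tlr2 in CPM (y axes, starting at 0) in non-cycling and cycling barcodes of the same library (x axis), 1 line per library for the 5 libraries used, with exact 95% Poisson intervals. Pld4 is higher in cycling barcodes in all 5, and the other 3 are lower in all 5.

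Other genes of nucleic acid sensing and Toll-like receptor signalling were taken from a list of 59 that holds co-receptors, proteases, adaptors, kinases, interferon regulatory factors and cytosolic sensors. Between thymus and bone marrow 2 of 50 tested members of the list rose and 0 fell (4.0% called, against 0.765% of all genes tested), with a median log2 difference of 0.09 against −0.02 over all genes. Irf7, the interferon regulatory factor that acts below Tlr7 and Tlr9, was at 20.4 and 16.5 CPM in the female and male marrow libraries, 32.0 and 20.2 in the splenic ones, and 106 and 146 in the thymic ones. Irf7 was thus higher in both thymic libraries than in the other 4, as Tlr7 was. It rose by 2.64 against bone marrow (SE 0.33, edgeR adjusted p = 7.5e-06) and by 2.10 against spleen (SE 0.32, adjusted p = 4.6e-04), although the first call was lost without male bone marrow (2.56, adjusted p = 0.061) and the second without male thymus (1.30, adjusted p = 0.097) and in IgA barcodes only (2.32, adjusted p = 0.082). Eif2ak2, the double-stranded RNA-activated kinase PKR, was at 33.6 and 27.1 CPM in the marrow libraries, 35.3 and 46.3 in the splenic ones and 128 and 82.4 in the thymic ones. It rose by 1.47 against bone marrow (SE 0.29, edgeR adjusted p = 0.0063), a call lost without female bone marrow (adjusted p = 1.0), male bone marrow (1.0) or female thymus (0.060), with no sex term (0.064) and in IgA (0.74) or IgG barcodes only (0.36), although the log2 difference stayed at 1.30 to 1.89 in these settings. Against spleen Irf7 was the only gene of the list called, 1 of 50 (2.0%) against 0.632% of all genes. Between spleen and bone marrow, and between the sexes, edgeR and DESeq2 each called 0 of 50, against 0.436% and 0.427% of all genes by edgeR. At an unadjusted p below 0.05 there were 1 and 4 genes of the list by edgeR and 2 and 0 by DESeq2. Over all 11239 genes tested there were 523 and 1129 by edgeR.

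Between IgA and IgM, 1 of 40 tested genes of the list rose and 7 fell, or 20% called against 7.66% of all genes, of which 278 rose and 289 fell (median −0.02, and −0.0087 over all genes). Irf8, an interferon regulatory factor of B and myeloid cells, fell by 1.19 (SE 0.18, edgeR adjusted p = 2.3e-05), and Ly96, the co-receptor of Tlr4 also called MD-2, by 0.86 (adjusted p = 0.0020). The lysosomal proteases Lgmn and Ctss, which can cleave endosomal Toll-like receptors, fell by 0.63 and 0.66 (adjusted p = 0.0017 and 0.0087 by edgeR), and Tmem173, which encodes the cytosolic DNA adaptor STING, by 0.66 (adjusted p = 0.0056). The Ly96 call was lost without barcodes holding B cell markers (−0.69, adjusted p = 0.13). The Ctss call was lost by DESeq2 (adjusted p = 0.064) and without any 1 bone marrow or spleen library (0.075 to 0.10), with log2 differences of −0.60 to −0.53, and that of Tmem173 without female spleen (−0.58, adjusted p = 0.10) and in non-cycling barcodes only (−0.49, adjusted p = 0.073). Pld3, the relative of Pld4 with the same kind of activity, rose by 0.40 (SE 0.12, edgeR adjusted p = 0.033), so the pair moved in opposite directions in IgA barcodes in the main fit. Pld3 was named here after its values were seen, and its call was not followed through the other settings.

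Between IgG and IgM, 3 of 40 rose and 8 fell, or 27.5% against 12.6% of all genes, of which 417 rose and 517 fell (median −0.07, and 0.0080 over all genes). Nfkbia, the inhibitor of NF-kappaB that its own pathway induces, fell by 0.90 (SE 0.14, edgeR adjusted p = 6.7e-06), the kinase Lyn by 0.78 (SE 0.12), Irak2, a kinase recruited through Myd88, by 0.96 (SE 0.16), and Irf8 by 0.76 (SE 0.13), each with an adjusted p of 6.4e-05 or below by edgeR. Tmem173 rose by 0.59 (SE 0.11, edgeR adjusted p = 1.8e-04). Irf8 therefore fell in both switched classes against IgM, whereas Tmem173 fell in IgA and rose in IgG. Between cycling and non-cycling barcodes, 7 of 48 rose and 18 fell, or 52.1% against 42.7% of all genes, of which 2168 rose and 2040 fell (median −0.35, and −0.04 over all genes). Rnaseh2b, a subunit of the RNase H2 that removes ribonucleotides from DNA, rose by 1.57 (SE 0.15). Nfkbia fell by 1.38 (SE 0.11), Ctss by 1.44 (SE 0.14), Zbp1, a sensor of Z-form nucleic acids, by 1.11 (SE 0.15) and Pld3 by 1.20 (SE 0.12), each with an edgeR adjusted p of 2.3e-06 or below. Pld3 and Pld4 thus moved in opposite directions in cycling barcodes as well.

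The genes whose pattern was most like that of each member were ranked by Pearson's r over the 18 library-and-class sums, on log2 values, with a pseudocount of 1 CPM, among 9289 genes with at least 200 UMIs. For Tlr7 they were BE692007 (0.95), Usp18 (0.88) and Trim30d (0.87), for Pld4 Alpl (0.93), Spon1 (0.92) and Chst1 (0.89), and for Unc93b1 Rnf145 (0.85), Psap (0.83) and Fnbp1 (0.83). The sums share libraries in sets of 3, and the thymic ones share low depth, so these values are descriptions. The nearest genes to Tlr4, Tlr2 and Myd88 were Tnpo2 (0.92), F2rl1 (0.95) and Polrmt (0.89). Each of these 3 members, and Tlr7 as well, had 0 UMIs in at least 1 of the 18 sums.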

How the data were processed

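The deposited gene expression matrices hold raw UMI counts per gene and barcode, not normalized, written by Cell Ranger 6.0.2 (filtered) and Cell Ranger 4 (unfiltered) per the file headers, on mm10/GRCm38 per the submitters' processing notes. Values of a barcode were equal in both matrices (0 entries differed), so no free RNA had been removed between them. The 6 VDJ libraries were not used here.

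The members, gene lists and tests were chosen with earlier results of these data known. Named were the 7 members and, per comparison, up to 5 genes of the 59-gene list with the smallest p among those called, except Pld3 in IgA, which was chosen after its values were seen. Genes starting Igh, Igk or Igl were left out of depths, library sizes and tests. Doublets were neither called nor removed.

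Raw counts were summed per library, per library and class, or per library and cycling state (sums of at least 10 barcodes) and tested with edgeR 4.0.16 in R 4.3.3 (quasi-likelihood F-test, TMM scaling, filterByExpr, Benjamini-Hochberg over all genes tested at 0.05). Library fits had tissue and sex as terms and 2 residual degrees of freedom. Class and cycling fits had the library as a block and 10 and 4 degrees of freedom. Standard errors were taken as the log2 fold change over the square root of F, and 95% intervals from them with the normal quantile. The fits were tested on simulated data, with a log2 change of 2 given to 200 genes of at least 10 CPM (UMIs per 1000000). Of these, 86.0% were recovered for thymus against bone marrow (4 false calls among 11054 genes), 88.0% for thymus against spleen (1 among 11034) and 95.0% to 100% in the 5 other comparisons (4 to 11 false calls). Simulated counts followed the fitted dispersion, with the same mean for a gene in all sums apart from depth and the given change. They therefore held no other differences between libraries, and do not speak to smaller changes or to genes under 10 CPM.

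Alternatives were DESeq2 1.42.0, RLE scaling, no filter on low counts, a light-chain limit of 80%, a minimum of 2000 UMIs, removal of barcodes with at least 2 B cell markers or at least 2 markers of other cell types, single classes, non-cycling barcodes, no sex term and each library left out. Subtraction of the free RNA estimate and the restriction to IgG barcodes were added after seeing the data. Tables and figures used Python 3.11.15 with pandas 2.3.3, scipy 1.17.1 and matplotlib 3.10.9.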

Additional observations from a re-analysis of the deposited data

Results flagged for a closer look

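In 8 cases the ratio of a member between 2 tissues, taken within each sex from its CPM, went up in one sex and down in the other. None of these differences between the sexes was tested, since each sex-by-tissue combination has 1 library. For Tlr4 the log2 ratio of thymus to bone marrow was 0.46 in females and −0.49 in males, a difference of −0.95. That of thymus to spleen was 0.58 and −1.10, a difference of −1.68, and that of spleen to bone marrow −0.12 and 0.61, a difference of 0.73. The thymic Tlr4 values rest on 3 and 9 UMIs.

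For Tlr2 the ratio of thymus to spleen was −0.69 in females, on 2 thymic UMIs, and 0.08 in males, a difference of 0.77. For Pld4 the same ratio was 1.0 and −0.20, a difference of −1.20. For Unc93b1 thymus to bone marrow was 0.15 and −0.11, a difference of −0.26, and thymus to spleen 0.43 and −0.02, a difference of −0.45. For Myd88 spleen to bone marrow was 0.12 and −0.06, a difference of −0.18.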

How the results depend on the processing

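The Tlr7 difference of thymus from bone marrow and from spleen kept its direction and its call in all 18 alternatives that tested it (log2 2.62 to 3.67 and 2.12 to 3.56), and the Pld4 differences by class and by cycling kept theirs in all that were run (IgA −2.08 to −1.51, IgG 1.21 to 1.66, cycling 0.81 to 1.29). Of 8715 barcodes 395 are thymic, and the thymic values of Tlr9, Tlr4, Tlr2 and Myd88 each rest on at most 27 UMIs per library. Alternatives with fewer barcodes, genes or libraries hold less information, and the cause of other shifts was not tested.

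The number of genes called moved more than the members did. For thymus against bone marrow (86 called) it was 57 with DESeq2, 131 with no filter, 52 at the 80% light-chain limit, 279 without barcodes with B cell markers, 16 in IgA barcodes only, 17 in IgG barcodes only and 40 with no sex term. Leaving out 1 library gave 16 (male bone marrow) to 353 (female spleen), with 34 without female bone marrow and 303 without male spleen. For thymus against spleen (71) it was 119 with no filter, 40 at 80%, 439 without B cell markers, 41 with free RNA subtracted, 3 in IgA only, 21 in IgG only, 142 in non-cycling barcodes only and 24 with no sex term. Leaving out 1 library gave 33 (female bone marrow) to 934 (male spleen), with 34 without male bone marrow and 135 without male thymus. In IgA barcodes only, where Tlr7 could not be tested, 0 of the 2 members tested were called by edgeR in both. At an unadjusted p below 0.05 there were 1 and 0 of them, against 185 and 222 of all 3798 genes tested.

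For spleen against bone marrow (49) the settings gave 8 with DESeq2, 103 with no filter, 15 at 80%, 82 at 2000 UMIs, 85 without B cell markers, 17 with free RNA subtracted, 0 in IgA only by edgeR (83 at an unadjusted p below 0.05, DESeq2 not run there), 4 in IgG only, 117 in non-cycling only and 17 with no sex term. Leaving out 1 library gave 11 (female bone marrow) to 158 (either thymus), with 15 without male bone marrow and 112 without male spleen. For the sexes (48) they gave 10 with DESeq2, 101 with no filter, 20 at 80%, 117 at 2000 UMIs, 278 without B cell markers, 19 with free RNA subtracted, 6 in IgA only, 9 in IgG only and 115 in non-cycling only. Leaving out 1 library gave 10 (either bone marrow) to 205 (male thymus), with 203 without female thymus.

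For IgA against IgM (567) there were 291 at 80% and 362 without B cell markers, and 274 (female spleen) to 703 with 1 library left out, with 295 and 347 without female and male bone marrow and 350 without male spleen. The 2 members called became 1 without markers of other cell types and in non-cycling barcodes only, and 1 to 2 with 1 library left out, where Unc93b1 was the member lost. For IgG against IgM (934) there were 462 (female spleen) to 1066 with 1 library left out and 596 without male spleen, and 1 to 2 members, Tlr7 being added without male thymus. For cycling (4208) the separate fit without B cell markers called 1788.

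Members that were not called changed sign in places. For thymus against bone marrow Tlr4 was 0.18 at 80% and −0.79 to 0.21 with 1 library left out, Unc93b1 0.13 in IgA only, and Pld4 −0.13 in IgG only and −0.10 to 0.74 with 1 left out. In IgA only Pld4 kept its sign but was 2.47 (SE 0.86, edgeR adjusted p = 0.46), against 0.30 over all barcodes. That value rests on 4 Pld4 UMIs in each marrow library and 5 and 7 in female and male thymus. For thymus against spleen Unc93b1 was 0.17 in IgA only, and Pld4 −0.31 without B cell markers, −0.011 with free RNA subtracted, −0.10 in non-cycling only and −0.33 to 0.51 with 1 left out. Tlr2 was −1.23 to 0.0039 and Myd88 −0.054 to 0.37 with 1 left out. For spleen against bone marrow Tlr4 was −0.23 in IgG only and −0.013 to 0.52 with 1 left out, Pld4 −0.17 and −0.052 to 0.56, and Myd88 −0.032 in IgM only and −0.16 to 0.26. Between the sexes, with 1 left out, Pld4 was −0.050 to 0.44 and Myd88 −0.32 to 0.066. For IgA, Tlr4 was −0.031 to 0.31 with 1 left out and Myd88 0.015 in non-cycling only. For IgG, Unc93b1 was 0.0075 in non-cycling only and Myd88 −0.077 without B cell markers.

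The labels number no replicates. The library fits pair the tissues by sex, with the fits with no sex term given above, and the class and cycling fits are blocked by library.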

Other observations

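Among barcodes that met the minimum depth but not the light-chain limit, 839 held at least 3 B cell markers (median depth 3098 UMIs). In these, Pld4 was at 169 CPM (exact 95% interval 156 to 183), Tlr7 at 28.4 (23.1 to 34.5), Unc93b1 at 583 (558 to 609) and Tlr9 at 1.41 (0.457 to 3.28, from 5 UMIs). In barcodes outside the filtered list Tlr9 was at 0.244 to 1.17 CPM per library, which overlaps that interval. In 103 barcodes with at least 3 macrophage markers, Pld4 was at 204 CPM (151 to 271), Tlr7 at 51.1 (26.4 to 89.2), Myd88 at 59.6 (from 14 UMIs) and Tlr9 at 12.8 (2.63 to 37.3, from 3 UMIs). Both sets pool libraries and tissues, and no comparison between them was tested.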
